A study of Homo sapiens with 18 samples.

Results

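The enzymes described here remove superoxide and hydrogen peroxide, and they were chosen by name as 10 genes, which were the superoxide dismutases SOD1, SOD2 and SOD3, catalase (CAT) and the peroxiredoxins PRDX1 to PRDX6. They are 10 of the 58302 genes in the count table. All 10 passed the filter on low counts, which kept 16751 genes. For 9 of them the Ensembl identifier of the table carried the symbol. SOD2 was matched by position, since its row covered 100% of the exon bases of SOD2 in GENCODE release 44 and no other row covered any.

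The cells were U87MG, an established human glioblastoma line, named U87 in the labels and grown in DMEM with fetal bovine serum in both groups. The control group held 2 libraries of cells under normal growth. The Erastin group held 2 libraries of cells given 10 μM Erastin for 72 h. Erastin blocks the cystine importer of the cell membrane and is used to induce ferroptosis, a death of cells that depends on iron and on the peroxidation of lipids. No vehicle is named in the labels of the control libraries. The replicates are called biological in the study's design, and every value comes from this 1 line at 1 dose and 1 time.

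Superoxide forms where electrons leak to oxygen, above all in mitochondria. Superoxide dismutases turn it into hydrogen peroxide, which is then reduced to water by catalase, by peroxiredoxins and by glutathione peroxidases. Peroxiredoxins reduce peroxides with a cysteine of their own, and most of them are recharged by thioredoxin, which thioredoxin reductase keeps reduced with NADPH. The members sit in different compartments. SOD1, PRDX1, PRDX2 and PRDX6 are mainly cytosolic, SOD2 and PRDX3 are in the mitochondrial matrix, CAT is peroxisomal, PRDX4 is in the endoplasmic reticulum, PRDX5 is shared by mitochondria, peroxisomes and cytosol, and SOD3 is secreted.

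Total counts on genes lay between 29412656 and 31513519 per library, with a biological coefficient of variation of 10.3% between replicates. Of 9 glioma and astroglial markers, 6 could be tested, and the summed expression of all 9 was 4143 to 4182 CPM (counts divided by library size after TMM adjustment in edgeR) in control cells and 2714 to 2903 CPM in Erastin-treated cells, with AQP4, an astrocyte water channel, at 0 in every library. VIM (2547 and 2482 CPM) and CD44 (1404 and 1406 CPM) made up most of the glioma sum in control cells. SOX2 held at most 6 counts a library and S100B at most 2. Summed over 6 immune markers the values were 8.34 to 8.37 CPM in control cells and 4.98 to 5.70 CPM in Erastin-treated cells. In control cells this sum was all CSF1R, and in Erastin-treated cells CSF1R gave 4.91 and 5.63 CPM of it. AIF1 and CD3E were at 0 throughout. The 5 neuron markers summed to 64.4 to 69.5 CPM and 25.97 to 27.01 CPM, and the 4 endothelial markers to 12.5 to 14.8 CPM and 5.25 to 6.97 CPM. Calls were made at adjusted p under 0.05 in edgeR's quasi-likelihood test. Of the markers tested, 4 of 6 glioma, 2 of 3 neuron, 1 of 1 immune and 2 of 3 endothelial markers were lower. In addition, 1 endothelial marker was higher. Of all genes tested, 23.7% were lower and 23.2% higher. The part of these shifts in the results on the enzymes was not tested.

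Promoter sequences show the stretch of DNA before the start sites of members that changed. RefSeq windows of GRCh38.p14, each with 250 bases before and 50 bases after a start site, were found for 7 members, 11 windows in all. SOD1, PRDX1 and PRDX6 had no window in the table. The SOD2 window with the most matches to the NF-kB motif is shown with the first windows of PRDX5, PRDX4 and SOD3, each without its annotated exons and read 5′ to 3′ on the strand of the gene. The SOD2 stretch is chr6:159693329-159693491 on the minus strand. Those of PRDX5, PRDX4 and SOD3 are on the plus strand at chr11:64317871-64318087, chrX:23667243-23667445 and chr4:24795323-24795462. Capitals mark matches to the NF-kB motif (GGG, any 5 bases, then CC) on either strand, and overlapping matches run together.
SOD2: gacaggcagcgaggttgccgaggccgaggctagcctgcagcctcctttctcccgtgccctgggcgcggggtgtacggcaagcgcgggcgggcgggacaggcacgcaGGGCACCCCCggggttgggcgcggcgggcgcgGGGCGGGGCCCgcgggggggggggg
PRDX5: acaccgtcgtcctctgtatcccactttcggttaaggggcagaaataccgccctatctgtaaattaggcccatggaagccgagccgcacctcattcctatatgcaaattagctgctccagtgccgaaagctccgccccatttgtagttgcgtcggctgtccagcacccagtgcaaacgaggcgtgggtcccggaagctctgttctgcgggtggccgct
PRDX4: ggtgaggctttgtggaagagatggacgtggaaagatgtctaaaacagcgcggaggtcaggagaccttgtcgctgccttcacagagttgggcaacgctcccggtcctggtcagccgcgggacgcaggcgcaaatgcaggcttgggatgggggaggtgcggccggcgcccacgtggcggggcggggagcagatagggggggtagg
SOD3: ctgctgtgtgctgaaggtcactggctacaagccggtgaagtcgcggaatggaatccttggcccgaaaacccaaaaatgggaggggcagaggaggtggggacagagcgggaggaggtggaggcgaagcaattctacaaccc

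The SOD2 window was chosen for its matches, so the capitals in its stretch set it apart from nothing. The whole windows shown of PRDX4 and PRDX5 hold 1 match each, outside the stretch printed, and that of SOD3 holds 0. The NF-kB motif lay in 9 of the 11 whole windows and in 58.67% of all 35116 windows. Several of the 11 windows belong to SOD2 and those of PRDX5 overlap, so shares of windows are not shares of genes. Every window of SOD2, CAT, PRDX3, PRDX4 and PRDX5 held a match, and those of SOD3 and PRDX2 held none. The core of the antioxidant response element (TGACNNNGC), which NRF2 binds, lay in 0 of the 11 and in 13.35% of all windows. The forkhead motif TGTTTAC lay in 0 of the 11 and in 3.42% of all windows. Both strands were searched, the NF-kB motif is loose, and no match says only that these letters are not in the window.

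Among the 10 enzymes, 4 rose in Erastin-treated cells (SOD1, SOD2, PRDX1 and PRDX5), 2 fell (SOD3 and PRDX4), and 4 did not pass the test (CAT, PRDX2, PRDX3 and PRDX6). The threshold was an adjusted p under 0.05 in edgeR's quasi-likelihood test over all genes tested, which 47.0% of them passed, 23.2% higher and 23.7% lower. With nearly as large a share of all genes called, the count of 6 in 10 is no result about these enzymes as a set. DESeq2 called the same 6, where it called 35.6% of the genes it tested. When the log2 fold change also had to reach 1 or -1, SOD2 (higher) and SOD3 (lower) passed, where 15.6% of all genes did, 6.24% higher and 9.34% lower. The median log2 fold change of the 10 was 0.09, and that of all genes tested was -0.00. Within this 1 line, a change in how many cells express a gene and a change in its RNA per cell cannot be told apart in bulk libraries.

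**Figure D1:**
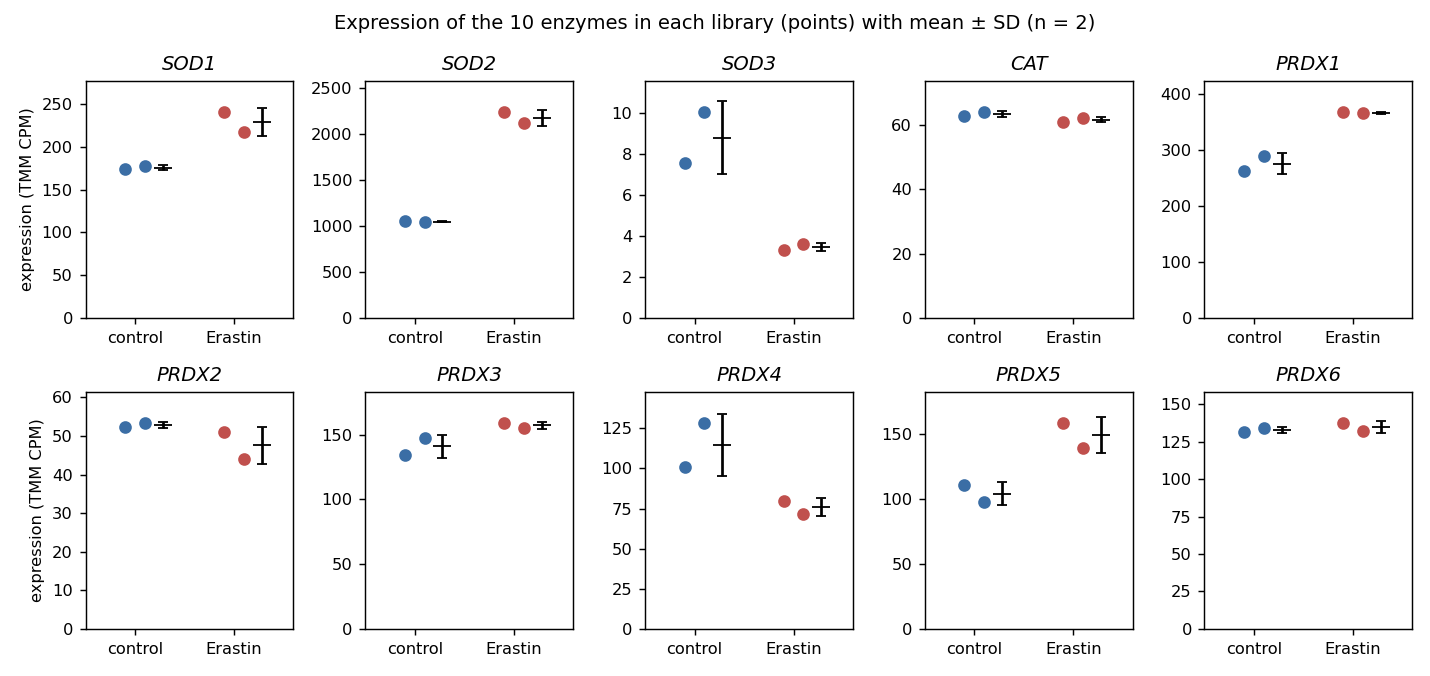
Expression of the 10 enzymes in CPM, counts scaled with TMM factors (vertical axis, starting at 0 with its own scale in each panel) in 2 control and 2 Erastin libraries (points), with mean and SD beside them. SOD2 rose from about 1051 to about 2182 CPM, SOD3 fell from 8.80 to 3.47 CPM, and the points of PRDX6 are the only ones whose groups overlap.

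SOD2, the manganese enzyme of the mitochondrial matrix, was the dismutase that rose most. SOD2 (ENSG00000112096, chr6:159669057-159762529, minus strand, GRCh38) was measured at 1053 and 1049 CPM in the control libraries and at 2244 and 2120 CPM in the Erastin libraries. Both Erastin libraries lay far above both control libraries. The control mean of 1051 ± 2.68 CPM rose to 2182 ± 87.5 CPM (SD, n = 2 each), a fold of 2.08 (95% interval 1.89 to 2.28). On the log2 scale this is 1.05 with a standard error of 0.0631 and an interval of 0.92 to 1.19 (adjusted p = 9.93e-08 in edgeR's quasi-likelihood test). The interval spans 1, so the fold may lie on either side of the threshold on size. The counts of SOD2 rest on 18985 exon bases, the longest of the 10. The main transcript of a gene is here the one Ensembl marks as canonical, and whether it was the form expressed was not tested. Of the 31-base words of that of SOD2, 42.2% also occur elsewhere on the primary chromosomes and 27.6% on alternate scaffolds. Reads with several matching places were left out of the counts. ACAT2 and WTAP overlap it on the opposite strand, over 9.74% and 2.3% of its exon bases, and without strand such reads cannot be assigned. ACAT2 held 357 and 467 counts in control libraries and 173 and 196 in Erastin libraries, and WTAP held 3804 and 3707 and then 3309 and 3206. Both lie below the 32205 and 32601 counts of SOD2 in control libraries and the 67106 and 66604 in Erastin libraries.

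SOD1, the copper and zinc enzyme of the cytosol, rose by less. SOD1 (ENSG00000142168, chr21:31659622-31668931, plus strand) was measured at 174 and 178 CPM in the control libraries and at 240.4 and 217 CPM in the Erastin libraries. The groups did not overlap, and the 2 Erastin libraries were further apart than the 2 controls. The control mean of 176 ± 2.85 CPM rose to 229 ± 16.5 CPM (SD, n = 2 each), a fold of 1.30 (95% interval 1.17 to 1.45). This is a log2 fold change of 0.38 with a standard error of 0.0709 (adjusted p = 0.000890 in the same edgeR test). The SOD1 pseudogenes held 0 counts in every library.

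SOD3, the secreted copper and zinc enzyme, moved the other way. SOD3 (ENSG00000109610, chr4:24789912-24800842, plus strand) was read 231 and 312 times in control cells, or 7.55 and 10.0 CPM, and 100 and 113 times in Erastin-treated cells, or 3.34 and 3.60 CPM. Both Erastin libraries lay below both controls, and the controls differed from each other more than the Erastin libraries did. The control mean of 8.80 ± 1.76 CPM fell to 3.47 ± 0.179 CPM (SD, n = 2 each), which is 2.53-fold lower. Its log2 fold change of -1.34 had a standard error of 0.215 and an interval of -1.81 to -0.87 (adjusted p = 0.000297 in edgeR's test). Leaving out 1 library at a time gave -1.53 to -1.13.

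Catalase breaks hydrogen peroxide down directly, without a reducing partner. CAT (ENSG00000121691, chr11:34438925-34472062, plus strand) was measured at 62.5 and 63.9 CPM in the control libraries and at 60.9 and 61.997 CPM in the Erastin libraries. Both Erastin values were the lower ones, by a small margin. The log2 fold change was -0.04 with a 95% interval of -0.20 to 0.12 (adjusted p = 0.696 in edgeR's quasi-likelihood test), which leaves room for a fold of 0.868 to 1.09. Scaled by library totals, the value was 0.01.

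Among the 6 peroxiredoxins, 2 rose, 1 fell and 3 did not pass the test. PRDX1, the main cytosolic peroxiredoxin, which thioredoxin recharges, rose. PRDX1 (ENSG00000117450, chr1:45511036-45523047, minus strand) was measured at 263 and 289.8 CPM in the control libraries and at 368 and 366 CPM in the Erastin libraries. The 2 Erastin libraries were nearly equal and lay above both controls. The control mean of 276 ± 19.3 CPM rose to 367 ± 1.69 CPM (SD, n = 2 each), a fold of 1.33 (95% interval 1.20 to 1.48). The change on the log2 scale was 0.41 (standard error 0.0688; adjusted p = 0.000410 in edgeR's test). MMACHC shares 24.9% of its exon bases on the opposite strand, and held 370 and 273 counts in control libraries against 8027 and 9001 for PRDX1.

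PRDX5, found in mitochondria, peroxisomes and cytosol, was the other peroxiredoxin that rose. PRDX5 (ENSG00000126432, chr11:64318088-64321811, plus strand) was measured at 111 and 97.8 CPM in the control libraries and at 159 and 139 CPM in the Erastin libraries. Every Erastin library lay above every control. The control mean of 104 ± 9.08 CPM rose to 149 ± 13.8 CPM (SD, n = 2 each), a fold of 1.43 (95% interval 1.26 to 1.63) that overlaps the interval of PRDX1. The change on the log2 scale was 0.52 (standard error 0.0855; adjusted p = 0.000380 in edgeR's test).

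PRDX4, the peroxiredoxin of the endoplasmic reticulum, which takes part in the oxidative folding of proteins, fell. PRDX4 (ENSG00000123131, chrX:23664262-23686399, plus strand) was measured at 101 and 128 CPM in the control libraries and at 79.6 and 71.7 CPM in the Erastin libraries. The second control library stood 1.27 times above the first, yet both lay above both Erastin libraries. The control mean of 115 ± 19.4 CPM fell to 75.7 ± 5.61 CPM (SD, n = 2 each), which is 1.52-fold lower. The change on the log2 scale was -0.60 (standard error 0.105; interval -0.83 to -0.37; adjusted p = 0.000556 in edgeR's test). Without the second control it was -0.43. That fit has 1 control library and takes its spread from the Erastin pair, so its adjusted p of 2.74e-06 with edgeR leaves out the gap between the controls. Of the 8 genes of oxidative folding in the same compartment, 7 were also higher in that control library than in the first. Their ratios ran from 1.003 (QSOX1) to 1.28 (ERO1B). The share of all genes higher in that control was not counted, and the part of this in the PRDX4 result was not tested.

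The other 3 peroxiredoxins did not pass. PRDX3 (ENSG00000165672, chr10:119167703-119178833, minus strand), of the mitochondrial matrix, was measured at 135 and 147 CPM in the control libraries and at 159 and 155 CPM in the Erastin libraries. Both Erastin values were the higher ones, with a log2 fold change of 0.16 (interval 0.00 to 0.31, adjusted p = 0.0920 in edgeR's quasi-likelihood test). Its 4 pseudogenes held at most 0.546% of its counts. PRDX2 (ENSG00000167815, chr19:12796820-12801859, minus strand), a cytosolic enzyme abundant in red cells, was measured at 52.4 and 53.5 CPM and then at 51.0 and 44.2 CPM. Both Erastin values were the lower ones, the second by more than the first, with a log2 fold change of -0.15 (interval -0.35 to 0.05, adjusted p = 0.193 in edgeR's test). It was -0.26 without the first Erastin library and -0.05 without the second, and was called in neither case. PRDX6 (ENSG00000117592, chr1:173477266-173488807, plus strand), which uses a single catalytic cysteine and glutathione, was measured at 131 and 134 CPM and then at 138 and 132 CPM. It was the only member whose groups overlapped, with a log2 fold change of 0.02 (interval -0.13 to 0.17, adjusted p = 0.820 in edgeR's test). The groups did not overlap for 9 of the 10 members, against 73.6% of all genes tested. In 5 members the Erastin libraries were above, against 36.7% of all genes, and in 4 they were below, against 36.9%.

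**Figure D2:**
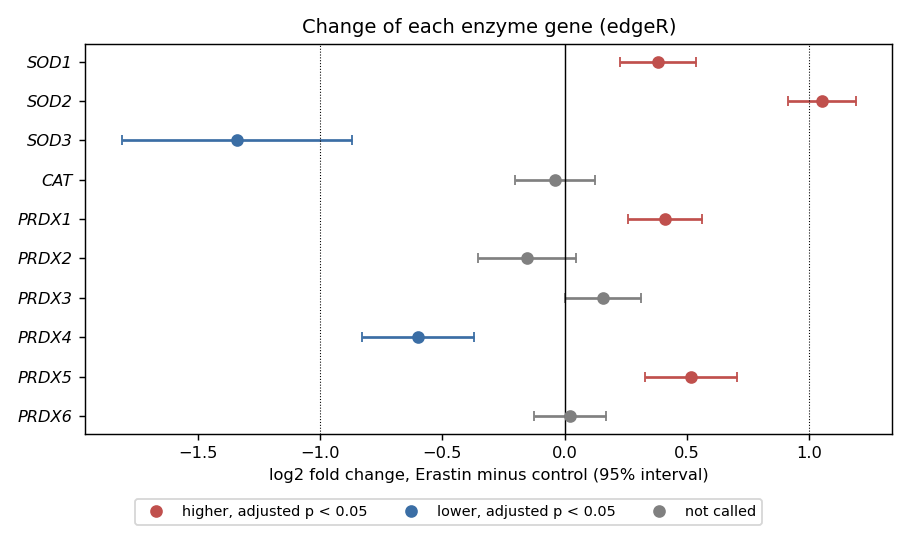
Log2 fold change of each enzyme gene, Erastin minus control (horizontal axis), with 95% intervals from edgeR, and colours for the call at an adjusted p under 0.05. Dotted lines stand at a log2 fold change of 1 in size; SOD2 at 1.05 and SOD3 at -1.34 lie beyond them, and the intervals of CAT, PRDX2 and PRDX6 include 0.

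Levels can be compared between genes only per length. Counts per kilobase of exon, scaled to the same sum in each library as for TPM, gave the order of the 10 genes. In control cells PRDX1 came first at 628 ± 62.5, followed by PRDX5 at 403 ± 23.0 and SOD1 at 301 ± 13.9 (SD, n = 2). PRDX4 (209 ± 41.4), PRDX6 (194 ± 8.63) and SOD2 (191 ± 5.25) followed and did not differ beyond the spread of PRDX4. PRDX3 (143 ± 13.4), PRDX2 (87.4 ± 3.88), CAT (65.3 ± 2.98) and SOD3 (14.3 ± 3.29) were the lowest. In Erastin-treated cells PRDX1 (951 ± 17.7) and PRDX5 (659 ± 70.3) stayed first, and SOD2 (453 ± 24.5) and SOD1 (447 ± 38.4) overlapped at ranks 3 and 4. PRDX4 moved from rank 4 to rank 7, at 157 ± 13.8. The order depends on the length used. With the length of the main transcript SOD1 ranked 2 and PRDX5 ranked 3 in both groups, and after Erastin SOD1 (1006 ± 86.3) lay above SOD2 (606 ± 32.7) without overlap (SD, n = 2). The ranks of PRDX1 and PRDX4 were the same with either length. Neither length allows for 31-base words that occur elsewhere on the primary chromosomes, 42.2% for SOD2 and 2.54% for SOD1. Reads with several matching places were left out, and how far this lowers SOD2 beside SOD1 was not tested. Such levels serve for order within a library, not for change between groups.

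The make-up of each family does not depend on the scaling of the library. Per length, SOD2 made up 38.3% and 37.4% of the dismutase level in control cells, against 49.5% and 50.5% after Erastin. SOD1 made up 59.3% and 59.5% and then 49.9% and 48.7%. SOD1 led in both control libraries, whereas in Erastin-treated cells SOD1 was slightly ahead in the first library and SOD2 in the second. SOD3 made up 2.45% and 3.19% and then 0.658% and 0.765%. Among the peroxiredoxins, PRDX4 went from 11.3% and 13.7% to 7.08% and 6.77%, and PRDX1 from 36.7% and 38.6% to 41.0% and 43.2%. PRDX5 made up 26.4% and 22.2% and then 30.1% and 28.05%. The length of the main transcript was also used in place of all exons. SOD2 then made up 26.8% ± 0.480 in control and 37.4% ± 0.720 in Erastin-treated cells (SD, n = 2). SOD1 stayed the larger at 62.01% ± 0.786 in Erastin-treated cells, and the sizes of such shares depend on the length chosen. Reads of SOD2 left out for several matching places may lower its share with either length, which was not tested.

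**Figure D3:**
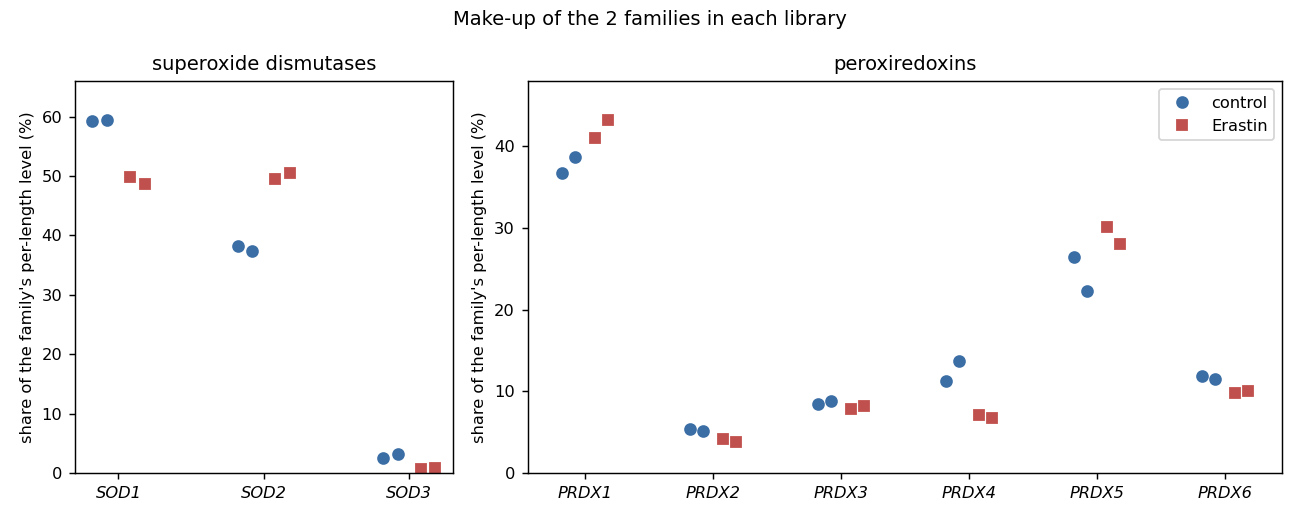
Share of each member in the summed per-length level of its family (vertical axis, percent, from 0) in 2 control libraries (circles) and 2 Erastin libraries (squares). SOD1 and SOD2 move from 59.4% and 37.8% to 49.3% and 50.02%, and PRDX4 from 12.5% to 6.92%.

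The partners that recharge peroxiredoxins were mostly higher. Of 9 such genes, all tested, 7 rose and 0 fell and their median was 0.62 on the log2 scale, where 23.2% of all genes rose. TXN, cytosolic thioredoxin, had a log2 fold change of 0.62 (adjusted p = 2.49e-05), and TXNRD1, its reductase, one of 2.04 (adjusted p = 7.56e-10, edgeR for both). TXNRD1 went from 349 and 333 CPM to 1396 and 1402 CPM. Of their mitochondrial counterparts TXNRD2 passed the test and TXN2 did not, with TXNRD2 at 0.80 (adjusted p = 0.00106) and TXN2 at 0.12 with an interval of -0.03 to 0.27 (adjusted p = 0.187 in edgeR's test). SRXN1, sulfiredoxin, which rescues peroxiredoxins that have been overoxidized, had 55 and 32 counts in control libraries and 198 and 147 in Erastin libraries, with a log2 fold change of 2.00 (adjusted p = 0.000336 with edgeR). GLRX2, a mitochondrial glutaredoxin, reached 1.18 (adjusted p = 2.96e-05 with edgeR).

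Glutathione peroxidases do the same reduction with glutathione. Of 8 listed, 4 could be tested, of which 3 rose and 0 fell (23.2% and 23.7% of all genes), with a median of 0.56 on the log2 scale. GPX1, the cytosolic and mitochondrial form, had 0.83 (adjusted p = 1.17e-05), GPX4, which reduces lipid peroxides and restrains ferroptosis, had 0.29 (adjusted p = 0.00684), and GPX3, the secreted form, had 2.00 on 48 and 23 counts against 128 and 157 (adjusted p = 0.000623, all by edgeR). GPX3 and SOD3, both secreted, went in opposite directions.

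Of 17 oxidases and their subunits that make superoxide or peroxide, 8 passed the filter on low counts, and among these 2 fell and 0 rose, against 23.7% and 23.2% of all genes, with a median of -0.51 on the log2 scale. MAOA, monoamine oxidase A of the mitochondrial outer membrane, had -1.18 (adjusted p = 9.49e-06) and NOXA1, an activator of NADPH oxidase, had -2.13 (adjusted p = 0.00705, edgeR for both), on 35 and 45 counts against 8 and 10. NOX4, an oxidase that releases hydrogen peroxide, was below the filter and not tested, with 0 counts in both controls and 16 and 7 counts after Erastin (named after its values were seen). The number called ranged from 1 with at least 10 counts in every library to 5 without a filter on low counts.

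Metal delivery concerns SOD1, SOD2 and SOD3, and peroxisomes concern CAT and PRDX5. Of 6 genes that carry copper or manganese, 2 rose and 1 fell, with a median of 0.15, and such a share called is near the 47.0% of all genes. The copper chaperone ATOX1 had 0.62 (adjusted p = 0.000248), the copper importer SLC31A1 had 0.40 (adjusted p = 0.00140), and SLC39A8, which takes up manganese, had -0.31 (adjusted p = 0.0254, all by edgeR). SLC39A14, which also carries manganese, was higher in CPM and had 0.16 with an interval of 0.03 to 0.29. It was not called (adjusted p = 0.0507 with edgeR). CCS, the chaperone that loads copper into SOD1, had -0.04 with an interval of -0.30 to 0.23 (adjusted p = 0.835 with edgeR). Of 16 peroxisome assembly factors 4 rose and 0 fell, with a median of 0.09, where 23.2% of all genes rose and 23.7% fell. PEX7 had 0.77 (adjusted p = 0.0116) and PEX19 had 0.26 (adjusted p = 0.0126, edgeR for both). With the first or second Erastin library left out, 1 or 2 of the 16 were called.

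Of 8 peroxisomal oxidases that release hydrogen peroxide, 6 could be tested, and 1 rose and 2 fell, against 23.2% and 23.7% of all genes. ACOX2, an oxidase of branched chains and bile acid intermediates, had -2.21 (adjusted p = 1.43e-05 with edgeR). PAOX had 16 and 17 counts in control libraries and 0 in both Erastin libraries, at least 10.6-fold lower against a floor of 3 counts over the group. The median was -0.09, also with PAOX at that bound.

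Of the 8 genes of oxidative folding in the endoplasmic reticulum, where PRDX4 works, 2 rose and 2 fell, with a median of -0.06. These shares are near the 23.2% and 23.7% of all genes and are no result about the list. The disulfide isomerases PDIA4, at -1.12 (adjusted p = 3.01e-07), and PDIA6, at -0.75 (adjusted p = 8.18e-06), fell as PRDX4 did. The 4 genes not called were P4HB at -0.02, PDIA3 at -0.10, TXNDC5 at -0.01 and ERO1A at -0.13. The oxidase ERO1B had 0.62 (adjusted p = 0.0110, edgeR for all), and with the first Erastin library left out only 2 of the 8 were called.

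Of 10 regulators of these enzymes, 6 rose and 3 fell, where 23.2% and 23.7% of all genes did, with a median of 0.32. NFE2L2, which encodes NRF2, had a log2 fold change of 0.74 (adjusted p = 2.16e-05), and KEAP1, its inhibitor, one of 1.18 (adjusted p = 7.60e-08). Of the forkhead factors, FOXO3 had 0.40 (adjusted p = 0.00121), FOXO1 had -0.62 (adjusted p = 0.00406), and FOXO4, at 0.15, was not called (adjusted p = 0.496). PPARGC1A, a coactivator of mitochondrial genes, had -1.50 (adjusted p = 9.66e-05, all by edgeR).

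The targets of NRF2 and of NF-kB gave a measure beside the enzymes. Of 16 NRF2 targets 13 rose and 1 fell, with a median of 0.95, where 23.2% of all genes rose and 23.7% fell. At or above 1 on the log2 scale were 7 of the rises, against 6.24% of all genes. SLC7A11, the cystine importer subunit, had 3.67 (adjusted p = 1.66e-10), HMOX1, heme oxygenase, had 3.36 (adjusted p = 1.98e-10), and OSGIN1 had 2.88 (adjusted p = 3.98e-10, all by edgeR). TXNRD1 and SRXN1 are on this list and on that of the partners. Of 12 NF-kB targets 4 rose and 3 fell, with a median of 0.09, where 23.2% and 23.7% of all genes did. All 4 rises were at or above 1 on the log2 scale, against 6.24% of all genes. Of the falls 1 reached -1, against 9.34%. CXCL8 had 2.65 (adjusted p = 1.98e-10), CXCL2 had 1.68 (adjusted p = 3.80e-07) and IL6 had 1.27 (adjusted p = 4.50e-05). CCL2 had -2.11 (adjusted p = 0.000211), and CXCL1 rose on 2 and 0 counts against 10 and 10 (adjusted p = 0.0481, all by edgeR). Of the NF-kB subunits, RELA had 0.62 (adjusted p = 9.80e-05), NFKB1 had 0.54 (adjusted p = 0.00156) and NFKB2 had -0.64 (adjusted p = 6.80e-05). RELB, at 0.21, was not called (adjusted p = 0.225, all by edgeR). SOD2, which is a known target of NF-kB, was not on that list.

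**Figure D4:**
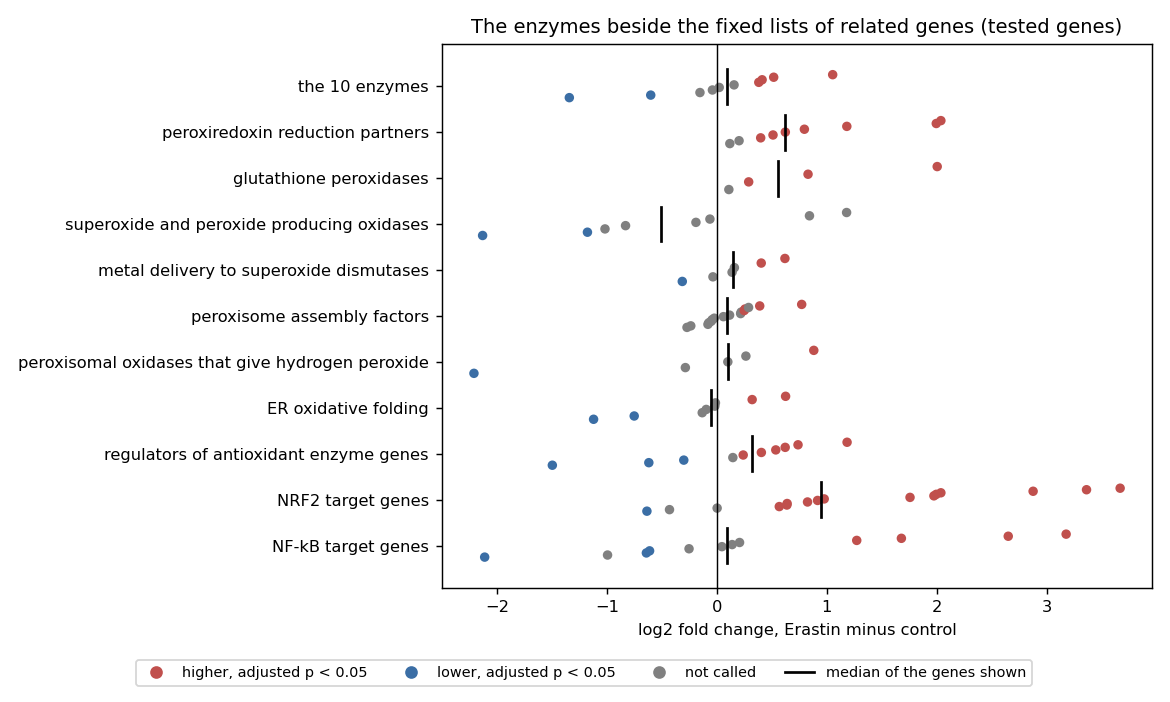
Log2 fold change, Erastin minus control (horizontal axis), of each tested gene in the 10 enzymes and the lists of related genes (rows), coloured by the edgeR call, with the median of the genes shown as a bar. PAOX, at 0 counts in both Erastin libraries, is left out. All 9 partners (7 called higher) and 14 of 16 NRF2 targets (13 called higher) lie to the right of 0, and the 10 enzymes on both sides.

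How far the values of the 10 enzymes depend on the analysis was read from 11 alternatives, 4 of which left out a library. In those 4 the arm of 1 library is assumed to vary like the other arm, whose pair alone gives the spread, so they bear on the size of a change more than on its call. The same 6 members were called in all 11, in the same direction, and SOD2 and SOD3 stayed past the threshold on size in all 11. SOD2 ranged from 1.01 to 1.10, SOD1 from 0.30 to 0.45, PRDX1 from 0.34 to 0.48, PRDX5 from 0.42 to 0.61, PRDX2 from -0.26 to -0.05 and PRDX4 from -0.77 to -0.43. PRDX3 was called in 2 of the 11.

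**Figure D5:**
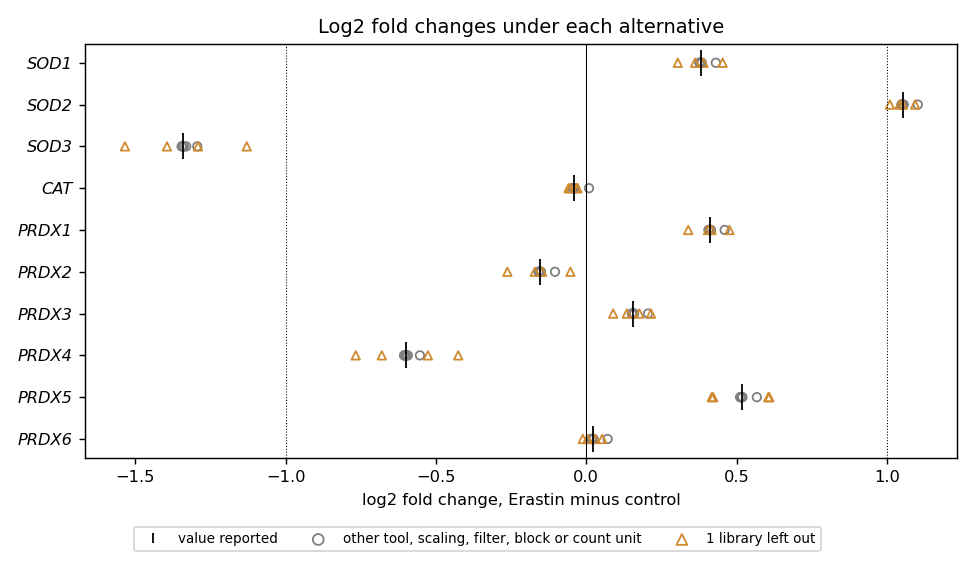
Log2 fold change of each enzyme gene, Erastin minus control (horizontal axis), as reported (bars) and under 11 alternatives, 4 of them with 1 library left out (triangles). SOD3 and PRDX4 spread most, from -1.53 to -1.13 and from -0.77 to -0.43, and CAT and PRDX6 stay near 0.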

How the data were processed

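The 4 RNA-seq libraries of the U87MG line (2 control, 2 Erastin) were grouped by their labels. The deposited values are raw counts of reads per gene, which the authors did not normalize. Per the file headers they were made with featureCounts 2.0.3 and the Ensembl release 90 annotation of GRCh38, whereas the processing notes of the submitters list featureCounts 2.0.4 and HISAT2 2.1.0 and the paper's methods name htseq-count. Counting ignored strand, took the reads of a pair separately and left out reads that matched several genes or places. One deposited column was handled as estimated counts, but 0 of its values had decimals, so rounding altered none.

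The members and gene lists were chosen with earlier results of these data known. Testing used edgeR 4.0.16 under R 4.3.3 (low-count filter filterByExpr at a minimum of 10, TMM factors of 0.971 to 1.02, quasi-likelihood test, two-sided, Benjamini-Hochberg over 16751 genes). The F statistic and the fold change gave the standard errors, and intervals are 95%. CPM are TMM-scaled. Genes named beside the 10 members were up to 3 of each list with the largest change at adjusted p under 0.05. To these came 11 fixed genes of the thioredoxin, glutathione, copper and NRF2 systems. Some further genes of the lists were named after their values were seen. The alternatives tried were RLE size factors, library totals, DESeq2 1.42.0, no filter, at least 10 counts in every library, a replicate block, counts divided by 2 and each library left out. The length of the main transcript was added after the data were seen. With 2 libraries a group, exact permutation could reach no two-sided p under 0.333, so p-values rest on variance shared across genes. Scripts were tested on simulated data. PCR duplicates were not marked by molecular identifiers, so counts overstate precision. Promoter windows came from RefSeq, GRCh38.p14. ChIP-seq and HiChIP data were not analysed here. Some genes of the lists are not reported here.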

Additional observations from a re-analysis of the deposited data

How the results depend on the processing

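Across the 11 alternatives, 108 of 110 log2 fold changes of the members stayed on their side of the threshold without turning a called direction. PRDX3 was the exception, at 0.21 (adjusted p = 0.0360 in edgeR's test) with library totals and between 0.090 and 0.22 when libraries were left out. It was called without the second control library (0.22, adjusted p = 0.0174 with edgeR) and not without the first (adjusted p = 0.387), and in both fits the Erastin pair alone gives the spread. CAT, at 0.01 with library totals, and PRDX6, at -0.01 with a library left out, changed sign without a call. Library totals moved the median of all genes to 0.05. A replicate block left 2607 genes past both thresholds, against 2610 without it, and 2540 were shared. The deviations of same-numbered libraries correlated at 0.0203 over all genes, which cannot show whether such libraries were made together. The block changed no call of a member. Oxidases called were 5 without a filter, 1 with at least 10 counts in every library and 4 with the block, against 2. Peroxisome assembly factors called were 2 with DESeq2, against 4. With the main transcript length, the share of SOD2 in control cells was 26.8% in place of 37.8%. Depth limits SOD3, with 100 to 312 counts a library, more than the other members.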
